A study of Mus musculus with 12 samples.

Results

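The integrated stress response is a signalling pathway by which cells slow general protein synthesis under amino acid shortage, unfolded protein in the endoplasmic reticulum, viral RNA or haem shortage. Kinases phosphorylate the translation factor eIF2, and the messenger RNA of the transcription factor ATF4 is then translated more efficiently, so ATF4 protein can rise without a rise of Atf4 RNA. ATF4 in turn switches on genes of amino acid supply and stress signalling, and their RNA is the usual sign of the pathway in RNA-seq. The 10 genes described here were chosen by symbol as its readout, namely Atf4, its partner and target transcription factors Atf3 and Ddit3 (CHOP), the target genes Trib3, Chac1, Asns, Psat1 and Phgdh, the phosphatase subunit Ppp1r15a (GADD34) and the endoplasmic reticulum chaperone Hspa5 (BiP). All 10 members were among the 24421 symbols of the count table, and all 10 were among the 14810 genes that passed the filter on low counts. The question was whether a stress response other than that of p53 accompanies loss of the splicing factor.

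The 12 libraries came from C57Bl/6 mouse embryos with altered Eftud2 in the neural crest lineage. Eftud2 encodes a GTP-binding component of the U5 particle, a core part of the spliceosome. They form 4 groups of 3, namely Eftud2+/- and Eftud2-/- at embryonic day 9.0 (E9.0) and the same genotypes at E9.5. The controls are heterozygous, so every library carries at least 1 altered allele and none is wild type. The Cre driver, the somite counts and the number of embryos in each library are not given in the labels, so p-values measure the spread between these libraries, which may in part be technical. The labels name the material in different ways, as neural crest cells, as cranial nerve ganglia and, in the protocol, as heads. In the counts, all 14 neural crest and all 13 cranial ganglion markers were detected in every library (lowest Foxd3, 0.300 CPM), but so were markers of other tissues, among them the neural progenitor gene Sox2 at 161 to 204 CPM, all 10 endothelial markers and all 8 heart muscle markers. In such mixed tissue, fewer cells of a type and less RNA per cell cannot be told apart.

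Library totals ran from 13914543 to 31172708 counts. The Rn45s row, a ribosomal RNA precursor, took 4.40 to 37.4% of the counts. Its share was 6.05 to 37.4% in E9.0 libraries and 4.40 to 5.90% in E9.5 libraries, which did not overlap. The library labelled heterozygous E9.0 replicate 1 stood apart with the highest share, so values without it are given for Eftud2 and Atf3. Eftud2 itself was at 286 ± 14.6 CPM in heterozygous and 234 ± 1.95 CPM in homozygous libraries at E9.0 (mean ± SD, n = 3 each), and at 256 ± 8.44 and 224 ± 2.96 CPM at E9.5. Homozygous minus heterozygous, the log2 difference of Eftud2 was -0.29 at the earlier stage (adjusted p = 0.0193 by edgeR) and -0.19 at the later one (adjusted p = 0.0906), lower in all 3 homozygous libraries than in all 3 heterozygous ones at both stages. The call at the earlier stage was lost without heterozygous E9.0 replicate 1 (-0.25, adjusted p = 0.0645 by edgeR), without homozygous E9.0 replicate 1 (0.0601) or 3 (0.0713), in a fit of only the groups compared (0.141) and under scaling by total counts (-0.08, adjusted p = 0.751). At the later stage Eftud2 passed with DESeq2 (adjusted p = 0.0134). It also passed there in edgeR after a GC and length correction, without (adjusted p = 0.0170) or with the replicate number as a block (0.0325). In the average of both stages Eftud2 was at -0.24 (adjusted p = 0.00214 by edgeR). That call held in 12 of 12 fits without 1 library and in 11 of 12 other settings. Scaling by total counts was the exception (-0.14, edgeR adjusted p = 0.619). CPM is the usual unit of counts scaled for library size, here after TMM scaling, which corrects for a few abundant genes.

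Per kilobase of the longest annotated transcript, the members spanned a wide range of mean levels over the 12 libraries. Hspa5, which folds proteins in the endoplasmic reticulum, was at 301 CPM per kb. The serine synthesis enzymes Psat1 and Phgdh were both at 83.2 CPM per kb, and their order was not fixed, since Psat1 was the higher at E9.0 and Phgdh the higher at E9.5. Atf4 followed at 52.8 CPM per kb and Asns, which makes asparagine, at 30.9. The stress-inducible regulators were all far lower. Ppp1r15a, which directs a phosphatase to eIF2 and ends the response, was at 4.00 CPM per kb, Ddit3 at 3.39 and Atf3 at 2.77. The last 3 cannot be put in one order over all groups, since Ddit3 lay below Atf3 in homozygous E9.0 libraries (2.35 against 3.19 CPM per kb) and above it in homozygous E9.5 libraries (4.51 against 3.16). Trib3, a pseudokinase that binds ATF4, was at 1.24 CPM per kb, and Chac1, which breaks down glutathione, at 0.238, on only 3 to 15 counts per library.

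All 10 are protein-coding genes. In GENCODE M21 (GRCm38) the transcription factor genes lie at chr15:80255184-80257541 (Atf4), chr1:191170296-191218039 (Atf3) and chr10:127290774-127296288 (Ddit3). The amino acid enzymes are at chr6:7675169-7693254 (Asns), chr19:15904678-15947337 (Psat1) and chr3:98313170-98339990 (Phgdh). The regulators Trib3 and Ppp1r15a are at chr2:152337422-152344032 and chr7:45522916-45526268, and Chac1 and Hspa5 at chr2:119351229-119354381 and chr2:34771970-34777547. Ddit3 and Ppp1r15a share a few exonic bases with a gene on the other strand, 68 with Mars and 12 with Tulp2. Per library, Tulp2 had 5 to 17 counts beside 123 to 467 of Ppp1r15a, and Mars 1960 to 5289 beside 25 to 142 of Ddit3, and reads from the shared bases cannot be told apart here. No counted partner shared exonic bases with the other 8.

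Members can be grouped by the letters of their promoters. ATF4 with a C/EBP partner is known to bind a composite element whose core reads TGATGCAA or, more loosely, TGATGNAA, and the endoplasmic reticulum stress response element has CCAAT and CCACG with 9 bases between. These were searched on both strands in RefSeq windows (GRCm38.p6) of 300 bases, from 250 before to 50 after each start. Of 32851 windows, 0.895% held TGATGCAA, 3.97% held TGATGNAA (which includes the former) and 0.119% held the endoplasmic reticulum element. The 10 members had 11 windows, with 2 for Psat1. TGATGCAA was in those of Atf3 and Chac1, TGATGNAA also in those of Trib3 and Asns, and the endoplasmic reticulum element in that of Hspa5. The windows below are shown because they hold a match in a member described in the results. They lie at chr1:191183410-191183469 (minus strand, Atf3), chr2:119351023-119351082 (plus strand, Chac1), chr6:7693199-7693258 (minus strand, Asns) and chr2:34772004-34772063 (plus strand, Hspa5), each read 5′ to 3′ on the gene's strand with the match in capitals. In Atf3 and Chac1 the match is on the other strand and so appears as its reverse complement.
Atf3: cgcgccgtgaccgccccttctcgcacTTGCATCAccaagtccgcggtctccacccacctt
Chac1: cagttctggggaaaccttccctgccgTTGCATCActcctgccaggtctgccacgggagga
Asns: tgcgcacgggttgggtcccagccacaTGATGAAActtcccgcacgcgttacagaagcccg
Hspa5: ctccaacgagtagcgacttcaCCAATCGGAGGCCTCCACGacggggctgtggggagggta

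Relative to the RefSeq start, the matches lie at -110 to -103 in Atf3, -193 to -186 in Chac1, -23 to -16 in Asns and -65 to -47 in Hspa5. The Trib3 match lies past the start, at bases 15 to 22, and its window is not printed. A match describes the letters only, and no binding was measured here. Of the members with TGATGCAA, Atf3 was called higher in homozygous libraries in the average of both stages and Chac1 was called in no comparison, and the difference between the 2 genes was not tested.

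Between genotypes, 1 of the 10 genes passed the test, and only in the average of both stages. With edgeR's quasi-likelihood test and Benjamini-Hochberg adjustment over all 14810 genes at 0.05, 0 of 10 members changed at E9.0, where 0.587% of all genes passed, and 0 of 10 at E9.5, where 1.89% passed. At an unadjusted p under 0.05 the counts were 1 and 2 members, near the shares of all genes, 13.3 and 13.4% (16.9% in the average). DESeq2 and limma-voom also called 0 at either stage. Among the members Atf3 had the smallest edgeR adjusted p at each stage, 0.225 and then 0.227. In the average of both stages, which rests on 6 libraries of each genotype, 1 of 10 members rose, where 2.96% of all genes passed and 1.82% passed as higher. The 10 members had a median log2 fold change of 0.08 at E9.0, 0.07 at E9.5 and 0.05 in the average, beside medians of all tested genes within 0.01 of 0.

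**Figure D1:**
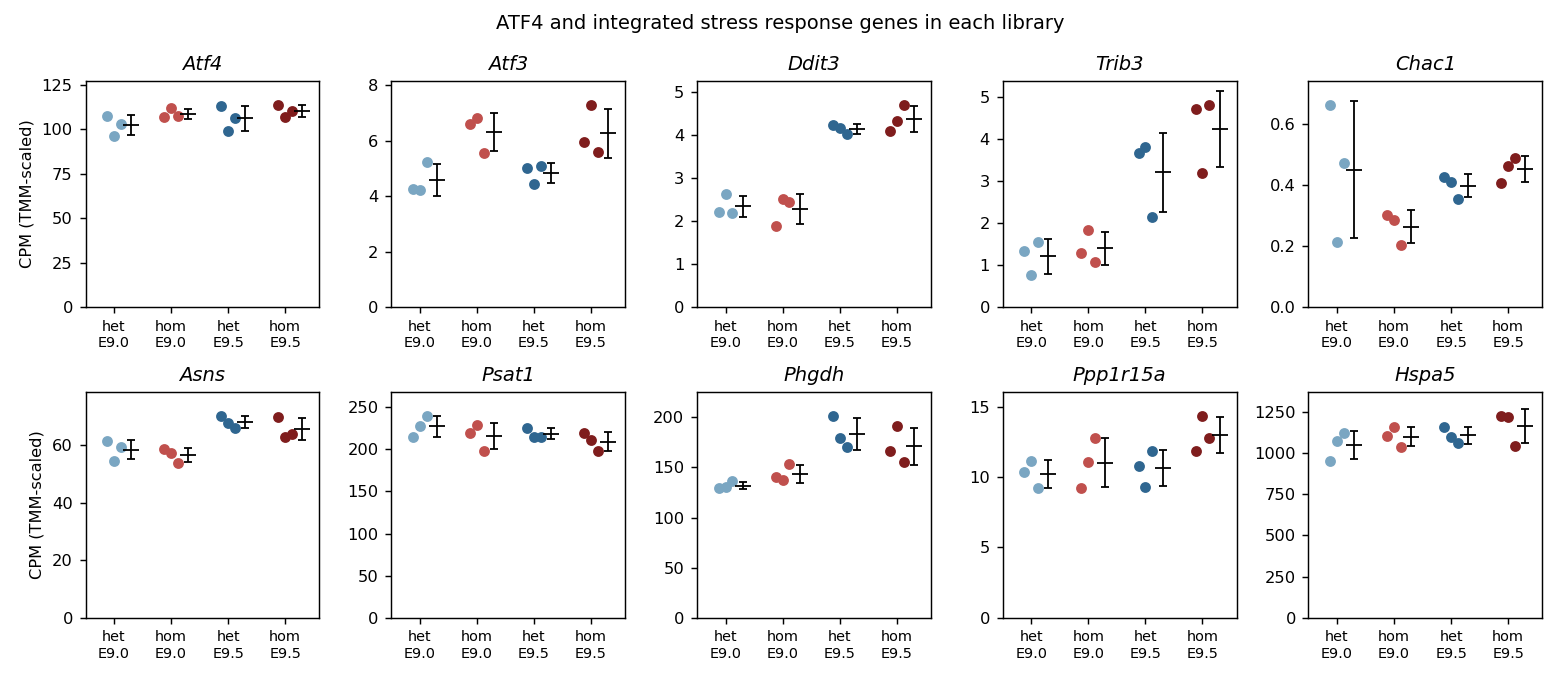
Level of each of the 10 genes in every library, in TMM-scaled CPM on linear axes that start at 0, in heterozygous (het, blue) and homozygous (hom, red) libraries at E9.0 and E9.5. Points are libraries and bars show the mean ± SD (n = 3), with Atf3 higher in all 3 homozygous libraries than in all 3 heterozygous ones at each stage and Ddit3 and Trib3 higher at E9.5.

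The gene that passed was Atf3, an early-induced transcription factor of the ATF family that p53, growth factor signals and ATF4 are all known to switch on. At E9.0 it was at 4.26, 4.24 and 5.25 CPM in the heterozygous libraries, while the homozygous libraries had 6.62, 6.82 and 5.54 CPM. At E9.5 the heterozygous libraries were at 5.0, 4.43 and 5.08 CPM and the homozygous ones at 5.94, 7.28 and 5.59 CPM. Neither stage showed any overlap of the groups. All 3 homozygous libraries lay above all 3 heterozygous ones in 9.07% of all genes at E9.0, in 11.4% at E9.5 and in 2.03% at both. At E9.0 the log2 fold change was 0.45 ± 0.16 (SE), and at E9.5 it came to 0.38 ± 0.14. Neither passed the threshold, with edgeR adjusted p-values of 0.225 and 0.227. Averaged over the stages it was 0.42 ± 0.10, a 1.33-fold difference with a 95% interval of 1.15 to 1.56 (edgeR adjusted p = 0.0422). An exact two-sided permutation test within stages gave p = 0.005, the smallest that its 400 arrangements can give. The difference between stages was -0.08 ± 0.21 (edgeR adjusted p = 0.949), so no change of the effect with stage was detectable.

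The Atf3 average missed the threshold in 9 of 12 fits that left out a single library. Over the 12 fits its log2 fold change ran from 0.36 to 0.48 and its edgeR adjusted p from 0.0413 to 0.113, and without heterozygous E9.0 replicate 1 they were 0.39 and 0.0726. Scaling by total counts gave 0.51 (edgeR adjusted p = 0.0506), and the fit with the replicate number as a block gave 0.41 (edgeR adjusted p = 0.0686). The fits that kept the call were those without replicate 3 of the heterozygous E9.0, the homozygous E9.0 or the homozygous E9.5 group. Summed levels of some other lists in the same libraries are given beside this result. The summed level of 10 endothelial markers was 282 to 303 CPM in heterozygous and 332 to 344 in homozygous libraries at E9.0, and 183 to 258 against 328 to 369 at E9.5, with 0, 8 and 6 of 10 called higher at E9.0, at E9.5 and in the average, and none of the 10 at 0 counts in any library. The 15 tested immediate early genes, such as Fos, Jun and Egr1, which cells induce within minutes of a stimulus, summed to 229 to 237 against 240 to 256 CPM at E9.0 and 237 to 310 against 301 to 361 at E9.5, where the groups overlapped, and 0, 1 and 0 of the 15 were called. The 14 neural crest markers summed to 922 to 1017 against 882 to 960 CPM at E9.0 and 711 to 765 against 529 to 656 at E9.5, overlapping at E9.0 only, with 1, 6 and 5 of 14 called lower. At E9.0 the 13 ganglion markers summed to 189 to 196 against 200 to 201 CPM. At E9.5 the sums were 286 to 309 against 275 to 280, with 1 called higher and 2 lower. The lower sum was not shared by most of these markers, since 7 of the 13 values were above 0, with a median of 0.07. In the average 2 were called higher and 2 lower, and 0 were called at E9.0. For the p53 targets described below the sums were 497 to 540 against 802 to 963, then 589 to 610 against 706 to 743. Neither list overlapped between genotypes at either stage. All 8 heart muscle markers had values above 0 in each genotype comparison, with 0, 1 and 1 called higher, and their sums overlapped. The part of these lists in the Atf3 difference was not tested.

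Atf4 itself passed in no genotype comparison. It was at 107, 96.2 and 103 CPM in heterozygous and 107, 112 and 107 CPM in homozygous libraries at E9.0. At E9.5 it was at 113, 98.8 and 106 CPM against 113, 107 and 110 CPM. The groups overlapped at both stages. In log2 terms the differences were 0.09 ± 0.06 at the first stage, 0.05 ± 0.06 at the second and 0.07 ± 0.04 in the average (edgeR adjusted p = 0.437). The 95% interval of the average, -0.02 to 0.16 on the log2 scale, holds under TMM scaling. Under scaling by total counts, which moved the median of all genes by 0.19 at E9.0, Atf4 was at 0.29 at that stage and 0.17 in the average, and neither passed. RNA counts do not show how efficiently the transcript was translated.

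Ppp1r15a had the next smallest p among the members at E9.5 and in the average, but not at E9.0. It was at 10.3, 11.2 and 9.20 CPM in heterozygous and 9.25, 11.1 and 12.8 CPM in homozygous libraries at E9.0. At E9.5 the values were 10.8, 9.27 and 11.9 CPM against 11.8, 14.3 and 12.8 CPM. One heterozygous E9.5 library lay just above the lowest homozygous one, and the groups overlapped at both stages. The log2 fold change at E9.0 was 0.11 ± 0.14, or 0.31 under scaling by total counts. At E9.5 it was 0.29 ± 0.12 (edgeR adjusted p = 0.311) and 0.20 ± 0.09 in the average (edgeR adjusted p = 0.273), and none passed the threshold.

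Among the ATF4 targets of cell death and signalling, no genotype difference passed. Ddit3, which promotes apoptosis under prolonged stress, had log2 fold changes of -0.03 ± 0.18 at E9.0 and 0.07 ± 0.14 at E9.5 (edgeR adjusted p = 0.970 and 0.898), and its sign at E9.0 turned under scaling by total counts. Trib3 had 0.22 ± 0.36 and 0.39 ± 0.24 (edgeR adjusted p = 0.838 and 0.554), and its 95% interval at E9.5 ran from -0.12 to 0.90. Chac1 had -0.71 ± 0.47 and 0.17 ± 0.33 (edgeR adjusted p = 0.535 and 0.904). For Chac1 and Trib3 the intervals still include changes of over 1.5-fold, so these genes set only loose limits. The intervals of all members hold for whole libraries of mixed tissue. The size of any change within neural crest cells alone was not tested.

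The metabolic targets and the chaperone had narrower intervals than Chac1 and Trib3. Asns lay at 54.7 to 61.4 CPM in heterozygous and 54.0 to 58.9 CPM in homozygous libraries at E9.0, and at 66.0 to 70.2 against 62.8 to 69.9 CPM at E9.5, with overlap at both. Psat1 lay at 214 to 240 against 198 to 229 CPM and then at 215 to 226 against 198 to 219 CPM, also with overlap. Asns had log2 fold changes of -0.05 ± 0.07 at E9.0 and -0.05 ± 0.06 at E9.5, and Psat1 of -0.08 ± 0.07 and -0.06 ± 0.06. The negative signs at E9.0 turned under scaling by total counts, which moved the median of all genes by 0.19 at E9.0. Phgdh was at 129, 130 and 136 CPM in heterozygous and 140, 137 and 154 CPM in homozygous libraries at E9.0, which did not overlap, and at 201, 179 and 170 against 166, 191 and 156 CPM at E9.5, which did. The homozygous minus heterozygous log2 value was 0.12 ± 0.08 at the first stage and -0.10 ± 0.08 at the second (edgeR adjusted p = 0.525 and 0.665). The difference between stages, -0.22 ± 0.11, did not pass either (edgeR adjusted p = 0.607). Hspa5 was the most abundant member, at 954 to 1122 CPM in heterozygous and 1040 to 1158 CPM in homozygous libraries at E9.0, and at 1063 to 1162 against 1044 to 1226 CPM at E9.5. It had a log2 fold change of 0.07 ± 0.07 at each stage, with 95% intervals of -0.09 to 0.22 and -0.09 to 0.23. Under scaling by total counts the E9.0 values were 0.31 for Phgdh and 0.25 for Hspa5, and neither passed. Over all members the stage difference of the genotype effect passed for 0 of 10 with edgeR, DESeq2 and limma-voom, where 0.0675% of all genes passed with edgeR, and 0 of 10 were under an unadjusted p of 0.05, where 8.60% of all genes were.

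**Figure D2:**
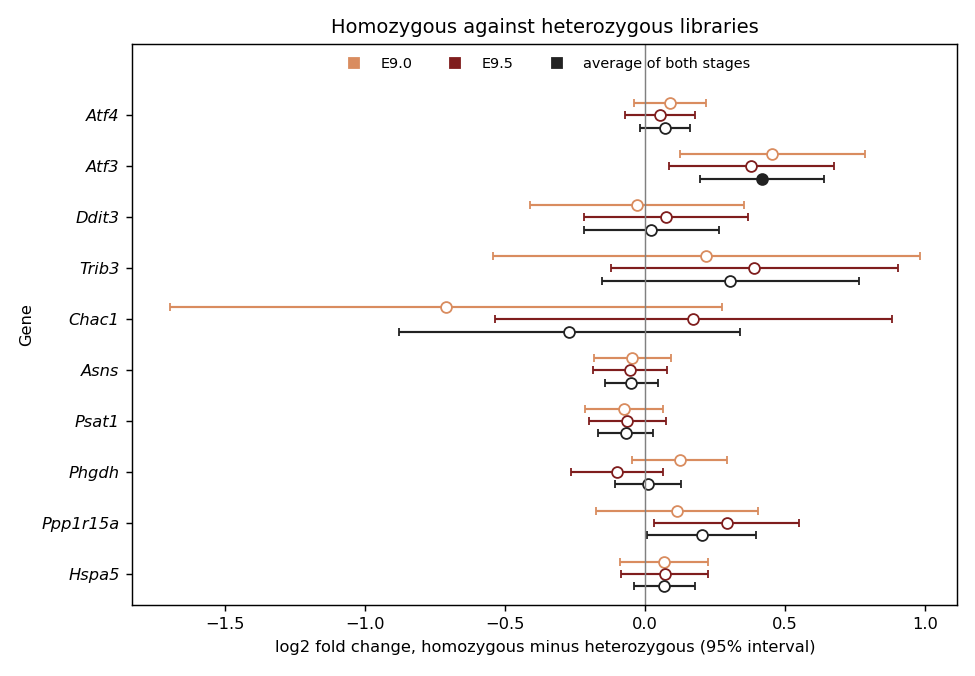
Log2 fold change of homozygous against heterozygous libraries for the 10 genes at E9.0, at E9.5 and averaged over both, with 95% intervals from the edgeR fit (points, estimates, filled where the adjusted p was under 0.05). The average for Atf3, at 0.42, is the only filled point, and the widest intervals belong to Chac1 and Trib3.

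The wider pathway was read from 7 gene lists, described by counts and medians without a test of any list. The upstream list of 16 tested genes holds the eIF2 kinases, subunits of eIF2 and eIF2B, and 5 others (Gcn1l1, Impact, Ppp1r15b, Dnajc3 and Eif2a). It had 0 called at E9.0, at E9.5 and in the average with edgeR, DESeq2 and limma-voom. Their counts at an unadjusted edgeR p under 0.05 were 2, 1 and 1, and their medians -0.01, 0.02 and 0.01. The unadjusted counts of this and the following lists stand beside 13.3, 13.4 and 16.9% of all genes in the same comparisons. The kinase genes include Eif2ak3 (PERK), which senses unfolded protein, and Eif2ak4 (GCN2), which senses uncharged transfer RNA. Chosen after their values were seen, Eif2ak2 (PKR) had the highest value of the list at E9.5, 0.21, and Eif2b3 the lowest at either stage, -0.19 and -0.12, and neither passed.

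Of 43 further ATF4 target genes listed, 40 were tested, among them amino acid transporters, aminoacyl-tRNA synthetases and one-carbon enzymes. At E9.0 1 rose and 0 fell, at E9.5 edgeR called 0 (6 at an unadjusted p under 0.05, 2 with DESeq2 and 0 with limma-voom), and in the average 2 rose and 1 fell. The list medians were -0.03, 0.01 and -0.02. The gene that rose at E9.0 was Sesn2, a leucine sensor that restrains mTORC1. It went from 17.4 ± 1.33 to 38.6 ± 9.45 CPM at E9.0, which is 1.15 ± 0.13 in log2 terms (adjusted p = 0.000223 by edgeR), and averaged 0.81 ± 0.09 over both stages. At E9.5 it passed with DESeq2, without a filter, with the GC correction with or without the block, and in a fit of only the groups compared (log2 values of 0.47 to 0.48, lowest adjusted p = 0.0112). Sesn2 also stands in the p53 list, since p53 is known to induce it. The others in the average were Ddit4, an mTORC1 inhibitor induced by several stresses, which rose by 0.64 ± 0.11 (edgeR adjusted p = 0.0106), and Gpt2, the mitochondrial alanine aminotransferase, which fell (log2 fold change -0.30 ± 0.06, adjusted p = 0.0175 by edgeR) but did not pass under scaling by total counts (-0.20, adjusted p = 0.407). DESeq2 called 3 of the 40 at E9.0 and 5 in the average. At E9.0 2 were called under total counts, without a filter, without robust dispersion, with the GC correction with or without the block, and with only the groups compared. At E9.5 the count was 2 with only the groups compared or the GC correction, and 1 with that correction and the block or without a filter.

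Lists for other forms of stress are given next. The 22 genes of the endoplasmic reticulum unfolded protein response, such as Xbp1, Hsp90b1 and Herpud1, had 0 called by edgeR in each genotype comparison, with 1, 3 and 1 at an unadjusted p under 0.05 at E9.0, at E9.5 and in the average. At E9.5 DESeq2 called 1 of them, the GC and length correction 1, that correction with the replicate block 2, and limma-voom 0. At E9.5 the values of 18 of the 22 were above 0, as were 49.2% of all genes, and the list summed to 4887 to 5130 CPM in heterozygous and 5135 to 5438 in homozygous libraries, which did not overlap. The 14 heat shock genes had 0 called by all 3 tools (1, 2 and 2 unadjusted), with the highest value, picked out afterwards, for Hspa1a, an inducible chaperone, at 1.14 at E9.0 (edgeR adjusted p = 0.442). Hspa1a rested on few counts there, at 0.265 ± 0.268 CPM in heterozygous and 0.640 ± 0.206 CPM in homozygous libraries. The 13 tested NRF2 targets of oxidative stress also had 0 called by all 3 tools (1, 2 and 1 unadjusted). Medians of these lists lay between -0.01 and 0.07. Of the immediate early genes 0 of 15 were called at E9.0 (0 unadjusted) and 1 at E9.5 (8 unadjusted), Klf6, with 0.40 ± 0.08 (edgeR adjusted p = 0.0150), a call lost under scaling by total counts and without heterozygous replicate 2 or homozygous replicate 2 or 3 of that stage. At E9.5 the values of all 15 were above 0, with a median of 0.40. In the average edgeR called 0 of the 15 (5 unadjusted), DESeq2 1 and limma-voom 0, while at E9.0 both other tools called 0. Klf6 did pass in the average under upper-quartile scaling (edgeR adjusted p = 0.0457) and without homozygous E9.0 replicate 3 (0.0463). It also passed there with the GC and length correction (0.00776) and with the replicate block added to it (0.0104).

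The p53 targets are given beside them. Of 24 tested, 17 rose at E9.0, 6 at E9.5 and 18 in the average, and 0 fell with edgeR in any of the 3, with medians of 0.69, 0.33 and 0.52. Cdkn1a, the p21 inhibitor of the cell cycle, went from 2.92 ± 0.61 to 20.9 ± 9.20 CPM at E9.0, 2.80 ± 0.29 in log2 terms (adjusted p = 0.00037 by edgeR). At E9.5 it was at 5.83 ± 0.44 CPM in heterozygous and 12.6 ± 0.57 CPM in homozygous libraries, 1.11 ± 0.24 in log2 terms. The count at E9.5 was 3 without heterozygous replicate 2, homozygous replicate 1 or homozygous replicate 3 of that stage, and 4 without any other of its libraries. It was also 3 under scaling by total counts and 10 when only the groups compared were fitted. The Cdkn1a call at E9.5 was lost in each of 6 fits without 1 of that stage's libraries (edgeR adjusted p of 0.0953 to 0.133) and without a low-count filter (0.115). None of the 10 members is in the p53 list, and Sesn2 is the only called gene that the p53 list shares with the other 6. Membership reflects how the lists were composed, and whether p53 acts on other called genes such as Ddit4 was not tested.

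**Figure D3:**
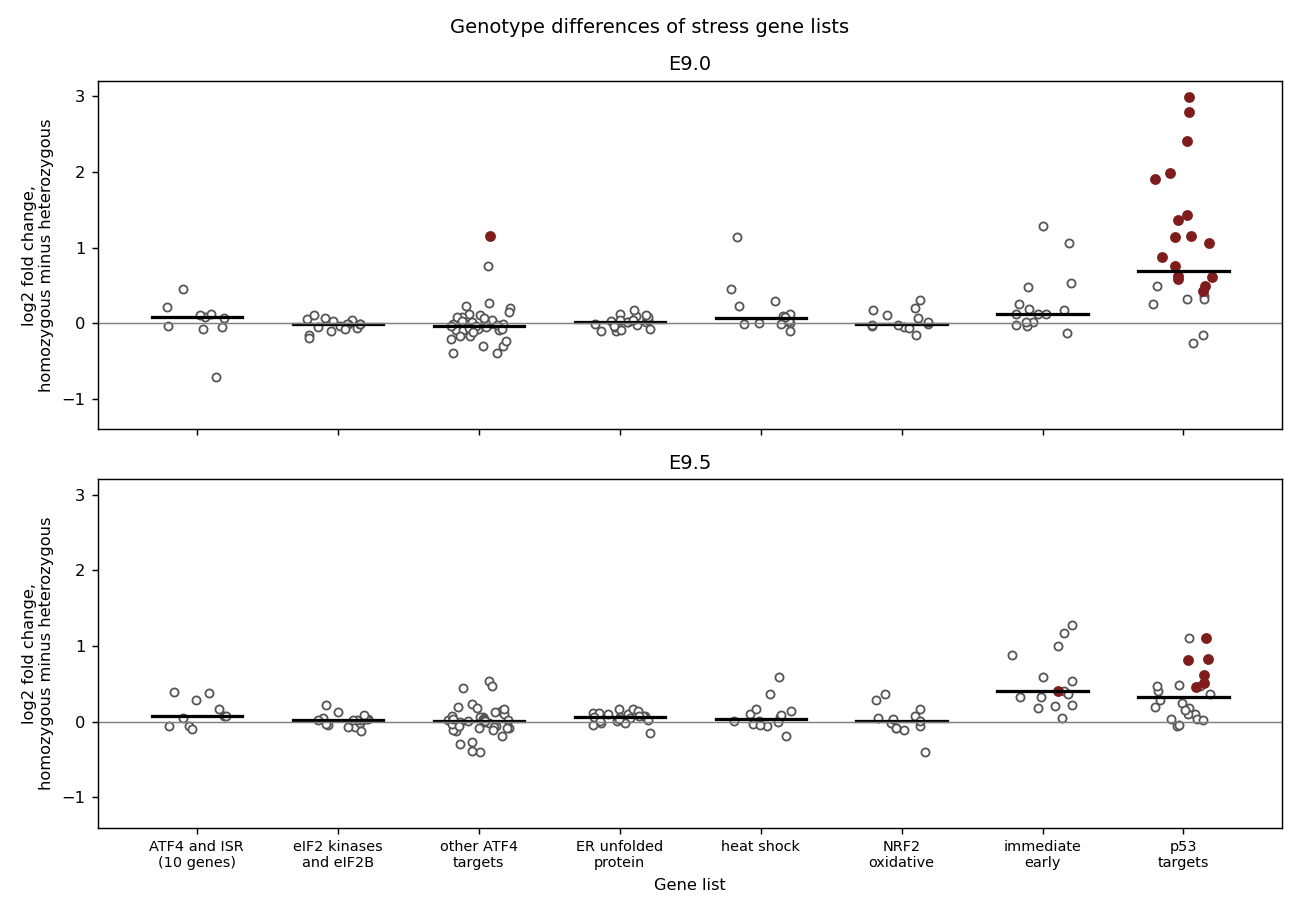
Log2 fold change of homozygous against heterozygous libraries for each tested gene of 8 lists, at E9.0 (top) and E9.5 (bottom). Points are genes, filled where the edgeR adjusted p was under 0.05, and black lines are list medians, which lie near 0 for the members at 0.08 and 0.07 and at 0.69 and 0.33 for the p53 targets.

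More members changed with stage. Between E9.0 and E9.5, 4 of 10 members rose in heterozygous libraries, where 35.2% of all genes changed and 19.2% rose, and 4 of 10 rose in homozygous libraries, where 35.4% changed and 19.6% rose. They were Ddit3, Trib3, Asns and Phgdh in both genotypes, and the 2 stage comparisons share no library, although each shares its E9.0 and E9.5 libraries with the genotype comparisons. All 3 E9.5 libraries lay above all 3 E9.0 libraries for these 4 in heterozygous libraries, as for 25.2% of all genes, and for 5 in homozygous libraries, as for 26.0%. With 10 genes and shares this large among all genes, the counts say nothing particular of the pathway.

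Ddit3 was at 2.20, 2.63 and 2.19 CPM in heterozygous E9.0 libraries and at 4.24, 4.17 and 4.01 CPM at E9.5. In homozygous libraries it went from 1.88, 2.52 and 2.43 to 4.08, 4.33 and 4.69 CPM. Every E9.5 library was above every E9.0 library. The log2 fold change was 0.82 ± 0.16 in heterozygous and 0.93 ± 0.16 in homozygous libraries, or 1.77-fold and 1.90-fold (edgeR adjusted p = 0.000723 and 0.000337). Ddit3 shares 68 exonic bases, 3.97% of its own, with Mars on the other strand in GENCODE M21, and the strand setting of the counting is not given. Mars itself had log2 fold changes of -0.15 with stage in both genotypes, which did not pass (edgeR adjusted p = 0.107 and 0.114). The part of the shared bases in the Ddit3 values was not tested.

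Trib3 had the largest change with stage among the members. Heterozygous libraries were at 1.32, 0.751 and 1.55 CPM at E9.0 and at 3.66, 3.82 and 2.13 CPM at E9.5. Homozygous ones were at 1.28, 1.83 and 1.08 CPM and then at 4.72, 3.19 and 4.80 CPM. The stages did not overlap in either genotype. The rise was 2.64-fold (95% interval 1.70 to 4.10) and 2.97-fold (1.92 to 4.60), with edgeR adjusted p of 0.00182 and 0.000689. Ddit3 and Trib3 kept their calls in every fit that left out a library.

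The rises of the amino acid enzymes were smaller. Phgdh, the first enzyme of serine synthesis, rose by 0.48 ± 0.08 on the log2 scale in heterozygous and 0.25 ± 0.08 in homozygous libraries (edgeR adjusted p = 0.000236 and 0.0205), and the homozygous call was lost without homozygous E9.0 replicate 1 or 2 or homozygous E9.5 replicate 2. Asns rose by 0.22 ± 0.06 and 0.21 ± 0.06 (edgeR adjusted p = 0.0139 and 0.0178), and its call was lost without heterozygous E9.0 replicate 2, heterozygous E9.5 replicate 1, homozygous E9.0 replicate 3 or homozygous E9.5 replicate 1. Psat1, which acts next after Phgdh, did not pass, with -0.06 ± 0.07 and -0.04 ± 0.07, signs that turned under scaling by total counts or by totals without Rn45s. Chac1 was at 0.301, 0.286 and 0.203 CPM in homozygous E9.0 libraries and 0.405, 0.461 and 0.488 CPM at E9.5, without overlap, but on 3 to 15 counts its log2 fold change of 0.76 ± 0.43 did not pass (edgeR adjusted p = 0.184). In heterozygous libraries it was at 0.661, 0.215 and 0.473 CPM and then at 0.427, 0.411 and 0.355 CPM, with overlap, and the log2 value was -0.12 ± 0.37 (adjusted p = 0.847 by edgeR). Atf4, Atf3, Ppp1r15a and Hspa5 had log2 fold changes between -0.01 and 0.23 and did not pass. Under scaling by total counts, which moved the median of all genes to 0.38 in heterozygous libraries, Atf4, Ppp1r15a and Hspa5 were called higher there too.

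**Figure D4:**
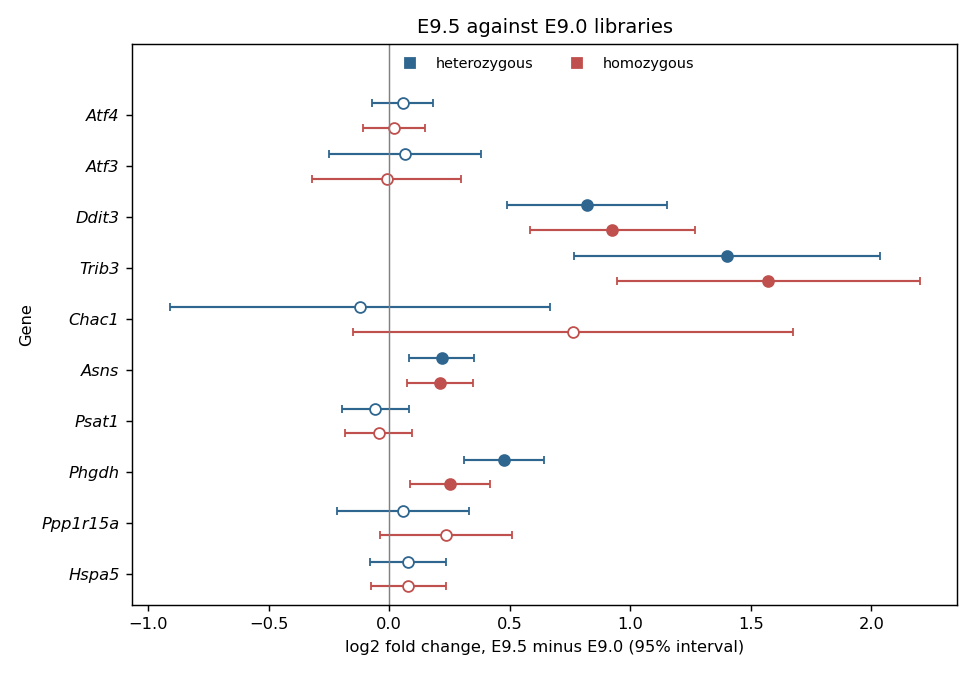
Log2 fold change of E9.5 against E9.0 libraries for the 10 genes in heterozygous and homozygous libraries, with 95% intervals from the edgeR fit (filled points, adjusted p under 0.05). Ddit3, Trib3, Asns and Phgdh are filled in both genotypes, with Trib3 the highest at 1.40 and 1.57.

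Other genes of the pathway changed with stage in both directions. Of the 40 further ATF4 targets 3 rose and 13 fell in heterozygous libraries, and 6 rose and 8 fell in homozygous ones. Of all genes, beside the shares that rose given above, 16.0 and 15.8% fell. Of the 16 upstream genes 0 rose and 6 fell, and 1 rose (Dnajc3, named after its value was seen) and 6 fell, by edgeR. Examples chosen after their values were seen are the C/EBP factor Cebpb, which rose by 0.60 ± 0.20 and 0.91 ± 0.20, and the secreted glycoprotein gene Stc2, with log2 fold changes of -0.97 ± 0.19 and -1.04 ± 0.19. Summed levels of tissue markers also differed between stages. From E9.0 to E9.5 the summed level of 8 heart muscle markers went from 74.0 to 255 CPM up to 2114 to 2810 CPM in heterozygous libraries, and from 128 to 372 up to 2513 to 3337 CPM in homozygous ones. The 7 tested erythroid markers summed to 646 to 1143 and then 3970 to 5200 CPM in heterozygous, and 537 to 1174 and then 2789 to 5105 CPM in homozygous libraries. The 13 ganglion markers went from 189 to 196 up to 286 to 309 CPM, and from 200 to 201 up to 275 to 280 CPM. The neural crest sums given above were lower at E9.5 in both genotypes, with 8 of 14 markers called lower in each. Of the 10 endothelial markers 6 were called lower and 0 higher in heterozygous libraries, and 1 lower and 2 higher in homozygous ones. The Rn45s share, given above, was also lower in every E9.5 library than in every E9.0 library. The part of these markers and of the Rn45s share in the rise of the 4 members was not tested.

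Within groups, libraries also differed in ways shared by some members. Over the 12 libraries, the deviations of log2 CPM from the group means correlated most for Psat1 and Hspa5 (Pearson r = 0.91 as a description, with scaling shared by all genes of a library), followed by Atf3 with Psat1 (0.69) and Trib3 with Asns (0.68). The lowest were Asns with Ppp1r15a (-0.68) and Trib3 with Ppp1r15a (-0.65). The 5 tested genes most like Atf4 in log2 CPM over the 12 libraries were Cib1 (r = 0.90), Samd9l (0.85), Gmds (0.83), Pmp22 (0.82) and Hpcal4 (0.82), of which Samd9l and Hpcal4 were under 0.5 CPM on average. By deviations from the group means they were Nrm (r = 0.95), S1pr2 (0.94), Cnn3 (0.94), Nrp2 (0.92) and B4galt3 (0.92). None of these genes is in any of the pathway lists.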

How the data were processed

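RNA-seq libraries of 12 embryo samples were compared. The authors deposited 1 table of raw counts per gene symbol. Per the submitters' processing notes, the tools were cutadapt, MultiQC, STAR and featureCounts with build mm10. Which annotation and strand setting were used is not given in the sources used here. All 12 columns matched a sample, and 0 were left over.

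The deposited counts were filtered with filterByExpr by group, scaled with TMM and tested with edgeR 4.0.16 (R 4.3.3, robust quasi-likelihood F test), in 1 model of 4 group means over 12 libraries with 8 residual degrees of freedom. P-values were adjusted over all 14810 genes. Intervals come from the same fit. Exact two-sided permutation tests of 3 against 3 libraries used CPM, and their smallest p is 0.1. The permutation test within stages, for the average, used log2 CPM. limma 3.58.1 and DESeq2 1.42.0 were alternatives, and the code was tested on simulated data. Gene models came from GENCODE M21 (GRCm38) and promoters from RefSeq. At 13914543 to 31172708 counts per library, 3 counts equal 0.0880 to 0.226 CPM. No library pair within a group agreed within sampling noise.

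Members and lists were chosen with earlier results of these data known. Named were all 10 members, Eftud2 and, from some lists, a few of the genes past the threshold in a genotype comparison. Of the p53 targets Cdkn1a was named, although Fas had the larger log2 fold change at E9.0, 2.98 against 2.80. Others were named as examples of what a list holds or of overlapping genes, or were chosen after their values were seen, as the text says.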

Additional observations from a re-analysis of the deposited data

Results flagged for a closer look

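The rule for a closer look was a genotype effect that differed between stages. It was applied only to the 10 members and a few other genes picked by name, not to all genes. Of these, 2 met it, while 10 of all 14810 genes (0.0675%) passed the same edgeR test. Both genes, Phlda3 and Ccng1, are p53 targets and neither is among the 10 members. For Phlda3, which restrains AKT signalling, the difference between stages (genotype effect at E9.5 minus that at E9.0) was -1.93 ± 0.28 (SE) in log2 terms, with an edgeR adjusted p of 0.0213. The gene went from 4.82 ± 0.999 to 26.1 ± 8.32 CPM between genotypes at E9.0 and from 12.8 ± 1.46 to 17.8 ± 1.57 CPM at E9.5 (mean ± SD, n = 3 each). The adjusted p rose above 0.05 with limma-voom (0.0678), without a low-count filter (0.0672) and in 6 of 12 fits that left out a library, without replicate 1 or 2 of the heterozygous E9.0, replicate 1 of the heterozygous E9.5 or any replicate of the homozygous E9.5 group. For Ccng1, which encodes cyclin G1, the same difference was -0.97 ± 0.15 (edgeR adjusted p = 0.0213). It was at 35.8 ± 7.32 CPM in heterozygous and 97.3 ± 4.05 CPM in homozygous libraries at E9.0, and at 76.4 ± 5.14 and 105 ± 5.89 CPM at E9.5. Its adjusted p rose above 0.05 under total counts (0.0970), without a low-count filter (0.0559), with the replicate block (0.0695) and in 8 of 12 fits without 1 library, namely without replicate 2 of the heterozygous E9.0, replicate 1 of the heterozygous E9.5 or any homozygous replicate. Groups of 3 libraries were not searched for single outlying samples.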

How the results depend on the processing

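Calls of Ddit3 and Trib3 with stage held in every setting and every fit without 1 library. The Atf3 average kept its direction in all of them and its call in 10 of 12 other settings, the exceptions being total counts only, which left 0 members called, and the replicate block, which also left 0 (log2 fold change 0.41, edgeR adjusted p = 0.0686). Leaving out 1 library gave 0 to 1 members. The replicate numbers were not taken to pair the libraries, since not every same-numbered pair had deviations correlating above 0.1. Between genotypes the pairs were at 0.03 to 0.28 at E9.0 and -0.07 to 0.15 at E9.5, and over all groups at -0.48 to 0.28. At E9.0 3 of 6 libraries correlated best with their own number and at E9.5 2 of 6. With the block, 69 genes were called at E9.0, 248 at E9.5 and 383 in the average, and it changed no other call of a member. Total counts only gave 123 genes at E9.5, 3326 with stage in homozygous libraries and 7 members with stage in heterozygous ones (Atf4, Ppp1r15a and Hspa5 added), where it moved the median of all genes to 0.38. DESeq2 called 216 genes at E9.0, 448 at E9.5 and 76 for the stage difference, for which limma-voom called 5. A GC and length correction gave 202 genes at E9.0, 733 in the average and 20 for the stage difference, and with the replicate block 135 at E9.0 and 664 in the average. The share of calls that were higher at E9.0 was 73.6%, but 96.15% under total counts, 86.8% without Rn45s in the totals and 61.7% without a filter; at E9.5 it was 62.9% and 47.15%, and in the average 61.5% and 84.8%, with and without TMM. Without 1 library, genes called ran from 38 (without homozygous E9.0 replicate 3) to 86 at E9.0, from 133 (without homozygous E9.5 replicate 2) to 252 at E9.5, from 246 (without the same) to 411 in the average and from 1 to 16 for the stage difference.

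Signs that turned belonged to values that passed no threshold. At E9.0 total counts gave Ddit3 0.158, Asns 0.157 and Psat1 0.113. In the average they gave Asns 0.048 and Psat1 0.0209, and the GC correction with block gave Phgdh -0.000545. With stage, total counts gave Chac1 0.251 and Psat1 0.305 in heterozygous and Atf3 0.153 and Psat1 0.121 in homozygous libraries, and totals without Rn45s gave Psat1 0.0404 and 0.0227 and Atf3 0.0563. Atf3 with stage in homozygous libraries was also 0.0275 without a filter, 0.00898 with the GC correction and 0.00836 with the block added. Klf6 at E9.0 was -0.00946 without a filter. Without 1 library the ranges at E9.0 were -0.115 to 0.079 for Ddit3, -0.0508 to 0.495 for Trib3, -0.000897 to 0.218 for Ppp1r15a and -0.0735 to 0.0693 for Klf6. In the average they were -0.0186 to 0.0766 for Ddit3 and -0.0313 to 0.048 for Phgdh. With stage they were -0.453 to 0.168 for Chac1 and -0.0254 to 0.15 for Ppp1r15a in heterozygous, and -0.131 to 0.0663 for Atf3 and -0.101 to 0.00447 for Psat1 in homozygous libraries. The cause was not tested in any of these. Counts limit Chac1 most, with 3 to 15 per library.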
